A study of Homo sapiens with 4 samples.

Results

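The ATP-binding cassette (ABC) transporter family was examined in 320-IWR cells and in their parental line COLO-320DM. Members were all probe sets annotated to exactly 1 symbol made of ABCA, ABCB, ABCC, ABCD, ABCE, ABCF or ABCG and a number, which gave 96 of the 54613 probe sets tested and 42 of the 19775 genes with a probe set of their own. COLO-320DM is an established human colorectal cancer line that depends on Wnt/β-catenin signaling, and 320-IWR is a single subline of it that was selected by continuous culture in IWR-1, an inhibitor of the poly(ADP-ribose) polymerase tankyrase, until it resisted the drug. Each line was represented by 2 arrays (GeneChip Human Genome U133 Plus 2.0), made from total RNA of cells grown close to confluence in culture dishes. The sources do not state whether IWR-1 was still present at harvest, nor whether replicates 1 and 2 came from different dishes, so a p-value here reflects array-to-array variation that may be no more than technical. The comparison addressed whether cells selected with a tankyrase inhibitor carried more or less mRNA for pumps that could move drugs, lipids or metabolites across membranes.

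ABC proteins bind and hydrolyse ATP in a pair of cassettes that close around the nucleotide. In most subfamilies this movement is coupled to membrane-spanning domains that carry a substrate across the membrane, as in the drug exporters of the ABCB, ABCC and ABCG subfamilies, the lipid carriers of ABCA and the peroxisomal transporters of ABCD. Some, such as ABCG2 and the ABCD proteins, hold 1 cassette per chain and work as dimers. ABCE1 and the ABCF proteins have cassettes but no membrane domain, and act on ribosomes and in translation instead of transport. In the intestine, ABCB1 and ABCG2 sit on the luminal side of the epithelium and return drugs and dietary toxins to the lumen.

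The 4 largest differences between the lines by brightest probe set that were not confined to dim signals concerned ABCB1, ABCB4, ABCF2 and ABCB8, all genes of chromosome 7. The 250 bases in front of the RefSeq start of ABCB1, ABCB8 and ABCF2 (build GRCh38.p14) are shown because these genes lead the lower and the higher end of the family and each holds a CCAAT box; capitals mark CCAAT or ATTGG, its form on the opposite strand. For ABCB1, which has 2 annotated starts, the downstream one is given, and the window of the other start holds neither form of the box. The regions are chr7:87600885-87601134 on the minus strand for ABCB1, chr7:151028200-151028449 on the plus strand for ABCB8 and chr7:151227206-151227455 on the minus strand for ABCF2.
ABCB1: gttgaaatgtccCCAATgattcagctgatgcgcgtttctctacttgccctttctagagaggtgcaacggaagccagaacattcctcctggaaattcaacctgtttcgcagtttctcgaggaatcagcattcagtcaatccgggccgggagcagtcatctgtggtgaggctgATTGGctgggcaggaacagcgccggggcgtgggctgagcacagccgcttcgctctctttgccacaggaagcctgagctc
ABCB8: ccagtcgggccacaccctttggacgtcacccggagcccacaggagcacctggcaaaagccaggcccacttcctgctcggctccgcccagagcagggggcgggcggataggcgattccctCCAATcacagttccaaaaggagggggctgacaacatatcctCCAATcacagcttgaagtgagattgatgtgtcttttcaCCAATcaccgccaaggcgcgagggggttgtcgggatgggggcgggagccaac
ABCF2: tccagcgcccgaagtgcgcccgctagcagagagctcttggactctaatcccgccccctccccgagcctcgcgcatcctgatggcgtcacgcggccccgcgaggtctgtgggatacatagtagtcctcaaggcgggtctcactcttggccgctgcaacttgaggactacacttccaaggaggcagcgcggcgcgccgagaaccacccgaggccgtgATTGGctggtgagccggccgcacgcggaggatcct
In ABCB1 the box begins 238 bases before the start in the CCAAT form and 79 bases before it in the ATTGG form. ABCB8 carries 3 CCAAT boxes, which begin 131, 90 and 52 bases before the start, and ABCF2 carries a single ATTGG 35 bases before it. A promoter was matched for 33 of the 42 member genes. Of these 33 genes, 10 (30.3%) held CCAAT or ATTGG, against 37% of 27305 genes with a window of the same length. The GC box GGGCGG or its opposite-strand form CCGCCC, the letters bound by Sp1-type factors, stood in front of 21 of the 33 (63.6%), against 46.2% of all genes. The motif ATCAAAG or CTTTGAT, the core of a TCF/LEF site, was found for 0 of the 33 genes and for 2.75% of all genes. The 3 motifs were searched on both strands; these are matches of letters and say nothing of binding.

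The arrays themselves were close in scale, with medians from 41.1 to 41.6 intensity units in 320-IWR and from 41.0 to 41.8 in COLO-320DM. Of 12 colorectal epithelial marker genes, all of them measured, 1 (KRT20) was called higher and 2 (KRT8 and KRT18) were called lower in 320-IWR. Of all 19775 genes by brightest probe set, 38 were called higher and 79 lower. By sign alone 6 of the 12 markers were higher and 6 lower. Their summed intensity ranged from 3733 to 3832 in 320-IWR and from 5449 to 5636 in COLO-320DM. Most of that sum came from CDX2, KRT18 (mean 385 in 320-IWR and 1226 in COLO-320DM) and KRT8 (113 in 320-IWR and 540 in COLO-320DM). CDX2, the intestinal master regulator, averaged 2756 ± 47.7 in 320-IWR and 3333 ± 99.0 in COLO-320DM (SD, n = 2 each), while the adhesion markers CDH1 and EPCAM were dim in both lines, at 18.5 and 15.8 in 320-IWR and at 17.2 and 29.3 in COLO-320DM. Markers of neuroendocrine cells (6 of 7 listed genes measured), leukocytes (4 of 5), fibroblasts (5 of 5) and endothelium (4 of 4) had 0 calls by limma, with 1, 0, 0 and 0 genes at an unadjusted p under 0.05. Their summed intensities were 213 to 219 in 320-IWR and 228 to 235 in COLO-320DM for the neuroendocrine list, 249 to 303 in 320-IWR and 212 to 255 in COLO-320DM for leukocytes, and 120 to 128 in 320-IWR and 115 to 119 in COLO-320DM for endothelium. The fibroblast list summed to 562 and 1484 on replicates 1 and 2 of 320-IWR and to 577 and 1490 on those of COLO-320DM, a split by replicate number that came from COL3A1 (278 and 1187 in 320-IWR, 292 and 1193 in COLO-320DM).

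No ABC probe set was called different between the lines. A call needed a limma adjusted p under 0.05 over all 54613 probe sets and at least a 2-fold difference of mean log2 values. By that rule 0 of 96 members were called higher and 0 lower in 320-IWR, against 0.112% and 0.258% of all probe sets (0.37% in either direction), and the smallest adjusted p of any member was 0.254, for ABCA3. At an unadjusted p under 0.05, limma gave 13 of 96 members (13.5%), 10 higher and 3 lower, where all probe sets gave 9.71% (4.6% higher and 5.11% lower). This share of members was not stable, and it stood below or above that of all probe sets by setting. It was 5.21% (5 members) with 16 added before log2, against 10.5% of all probe sets. A block on replicate number gave 19.8% (19 members), against 20.5%. With dim probe sets filtered out it was 26.5% (9 of 34 members), against 14.7%. The number of members also moved when single arrays were left out. The arrays of the lines did not overlap for 41 members (42.7%), 27 with both 320-IWR arrays above and 14 with both below, against 35.6% of all probe sets (19.5% above and 16.1% below). A difference of at least 2-fold was met by 0 members in the higher direction and by 3 in the lower direction, where the shares of all probe sets were 0.586% and 1.36% (1.94% in either direction), and these 3 belonged to ABCB1 and ABCB4. Many members were dim: 34 of the 96 probe sets reached a mean log2 value of 6 in a line, and 21 genes did so by their brightest probe set. Among the 34 brighter probe sets 18 (52.9%) had lines that did not overlap, against 42.2% of all probe sets at that brightness.

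**Figure D1:**
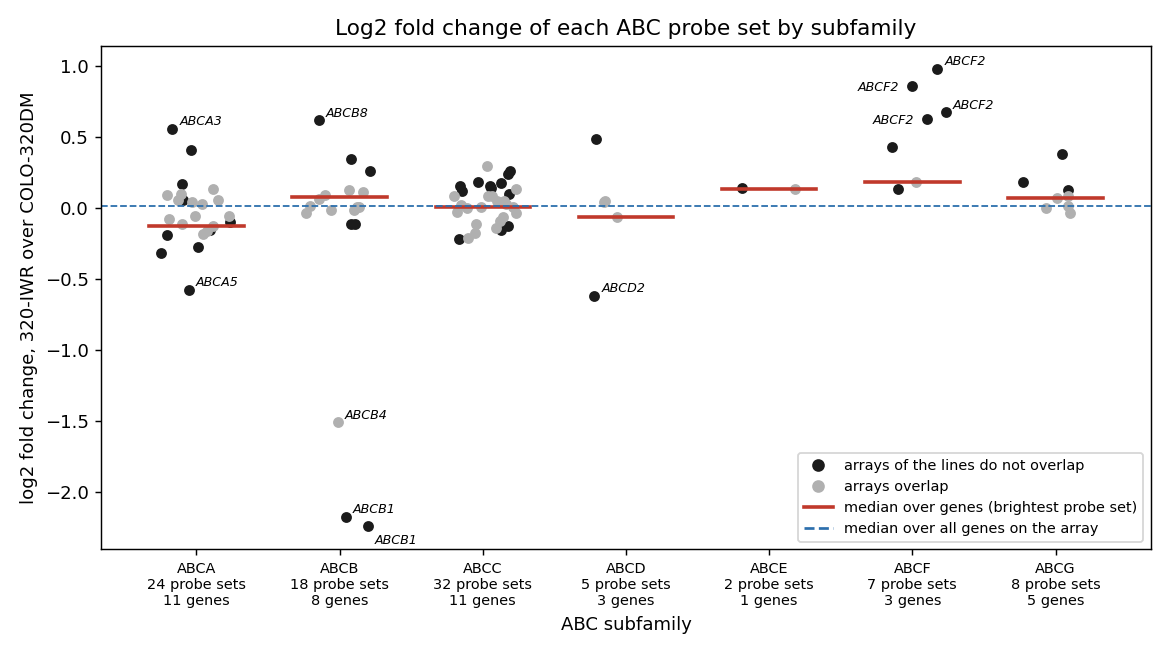
Log2 fold change of 320-IWR over COLO-320DM (vertical axis) for the 96 ABC probe sets by subfamily (horizontal axis), each point a probe set, black where the 2 arrays of one line all lie above those of the other and grey where they overlap; red bars are medians over genes by brightest probe set and the dashed line is the median of all genes. Most points lie near 0, with both probe sets of ABCB1 and the brighter one of ABCB4 below -1.5 and the probe sets of ABCF2 between 0.43 and 0.98.

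ABCB1 encodes P-glycoprotein, which expels a wide range of hydrophobic drugs, and it had the lowest log2 fold change of the family. Its brighter probe set (209993_at) read 629 and 163 on replicates 1 and 2 of 320-IWR, against 2305 and 992 on replicates 1 and 2 of COLO-320DM. Both 320-IWR arrays lay below both COLO-320DM arrays, but the arrays of each line also lay far apart, with replicate 1 the higher in both. The mean log2 difference was -2.24 (SE 0.75), a 4.73-fold lower level in 320-IWR, with a 95% interval from -4.20 to -0.28 and a limma adjusted p of 0.433. The second ABCB1 probe set (243951_at) read 214 and 57.2 in 320-IWR, against 770 and 324 in COLO-320DM, a log2 difference of -2.17 (SE 0.74, limma adjusted p = 0.445). It gave the same picture as the first, and the log2 difference between the 2 probe sets stayed between 1.51 and 1.62 on all 4 arrays, so that they moved together from array to array. With the replicate number as a block, for which the labels give no ground beyond the shared number, the limma adjusted p was 0.0514 for 209993_at and 0.0489 for 243951_at, so that the second was called lower. Without replicate 2 of 320-IWR, the lowest array, the log2 difference of the brighter probe set was -1.27, and without replicate 1 of 320-IWR it was -3.22. In RNA from a whole culture, fewer cells with the transcript and less transcript per cell cannot be told apart.

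ABCB4, next to ABCB1 on chromosome 7, encodes a flippase that moves phosphatidylcholine into bile. Its brighter probe set (207819_s_at) read 341 and 84.8 in 320-IWR, against 869 and 268 in COLO-320DM. Here replicate 1 of 320-IWR lay above replicate 2 of COLO-320DM, so the lines overlapped, and replicate 1 was again the higher array of each line. The log2 difference was -1.51 (SE 0.86, 95% interval -3.74 to 0.73, limma adjusted p = 0.734), and it was -0.50 without replicate 2 of 320-IWR, -0.66 without replicate 1 of COLO-320DM, -2.51 without replicate 1 of 320-IWR and -2.35 without replicate 2 of COLO-320DM. The suffix of this probe set marks probes shared by several transcripts, and ABCB1 and ABCB4 are close paralogs, so its signal cannot be assigned to ABCB4 with certainty. The other ABCB4 probe set (1570505_at) was dim, at 8.92 and 7.71 in 320-IWR and 8.70 and 7.81 in COLO-320DM. A further probe set annotated to both genes (209994_s_at), which is no member, read 623 and 146 in 320-IWR, against 2100 and 798 in COLO-320DM, 4.29-fold lower (limma adjusted p = 0.529). The log2 difference of 209993_at to this shared probe set lay between 0.01 and 0.31 on the 4 arrays, and that to 207819_s_at ranged more widely, from 0.88 to 1.89. With the same block 207819_s_at was called lower (SE 0.11, limma adjusted p = 0.0425).

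The genes around ABCB1 and ABCB4 were read in the order of the GRCh38.p14 gene table, in which all 42 members could be placed. RUNDC3B, the next gene on the other side of ABCB1 from ABCB4, read 118 and 73.2 in 320-IWR, against 340 and 309 in COLO-320DM (241703_at). All arrays of 320-IWR lay well below those of COLO-320DM, with far less spread within a line than ABCB1 had. The log2 difference was -1.80 (SE 0.25, limma adjusted p = 0.104), and a second RUNDC3B probe set (215321_at) read 45.9 and 34.6 in 320-IWR, against 153 and 125 in COLO-320DM (adjusted p = 0.0691 by limma). The other 8 genes in the window ran from -0.29 (TP53TG1) to 0.17 (SRI). In the gene table RUNDC3B overlaps ABCB1 on the opposite strand, beginning between its annotated starts, and whether transcripts of one gene reached the probe sets of the other was not tested. RUNDC3B and its neighbours were looked at after the values of ABCB1 had been seen.

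**Figure D2:**
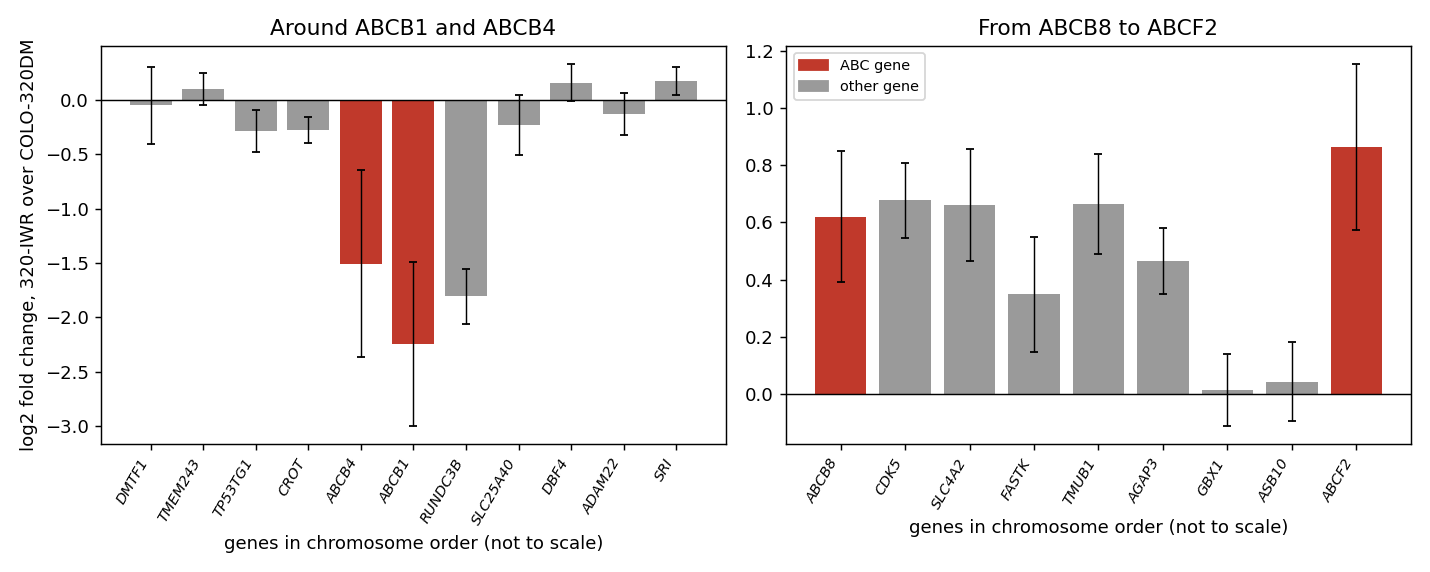
Log2 fold change of 320-IWR over COLO-320DM (vertical axis) by brightest probe set for genes in chromosome order around ABCB1 and ABCB4 (left) and from ABCB8 to ABCF2 (right), ABC genes in red and others in grey, with bars as limma estimates and error bars as their SE. ABCB4, ABCB1 and RUNDC3B stand at -1.51, -2.24 and -1.80 among neighbours near 0, and 5 of the 7 genes between ABCB8 and ABCF2 lie between 0.35 and 0.68.

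The other exporters of drugs and organic anions had small log2 differences, though for some of them the lines did not overlap. ABCC1 (MRP1), which exports glutathione conjugates, read 678 and 839 in 320-IWR and 771 and 891 in COLO-320DM, a log2 difference of -0.14 (95% interval -0.57 to 0.30). The lines overlapped, as they did for its second probe set at 0.03. ABCC4 (MRP4), an exporter of cyclic nucleotides and prostanoids, read 968 and 1253 in 320-IWR and 927 and 1288 in COLO-320DM (0.01, 95% interval -0.58 to 0.60). ABCC5 (MRP5), a related exporter of cyclic nucleotides, read 463 and 526 in 320-IWR and 459 and 460 in COLO-320DM (0.10, 95% interval -0.23 to 0.44). The arrays of each line lay further apart than the lines did for ABCC4, and for ABCC5 both 320-IWR arrays lay just above those of COLO-320DM. The other probe sets of ABCC4 ran from -0.21 to 0.05 and those of ABCC5 from 0.004 to 0.30, with lines that overlapped on each. ABCC3 (MRP3), which carries glucuronides and bile salts across the basolateral membrane, read 106 and 92.6 in 320-IWR and 84.6 and 91.1 in COLO-320DM (0.17, 95% interval -0.18 to 0.53), and its 5 probe sets ran from -0.17 to 0.26. On 3 of the 5, this one included, both 320-IWR arrays lay above those of COLO-320DM. ABCC2 (MRP2), the apical exporter of conjugated bilirubin, was dim at 24.8 and 20.0 in 320-IWR and 19.6 and 19.6 in COLO-320DM (0.18), with lines that did not overlap. ABCG2, the breast cancer resistance protein, was dim too, at 14.1 and 11.6 in 320-IWR and 9.70 and 9.99 in COLO-320DM, a log2 difference of 0.38 (SE 0.15, limma adjusted p = 0.515). Its 320-IWR arrays both lay above those of COLO-320DM, at the low end of the intensity scale. Of the 10 exporter genes of this role, ABCC10, ABCC11 and ABCC12 had log2 differences of 0.01, -0.13 and -0.03, and the median over the 10 was 0.01. Their 24 probe sets had 1 higher and 2 lower at an unadjusted p under 0.05, ABCG2 and the pair of ABCB1, where all probe sets gave 4.6% and 5.11%. By brightest probe set the lines did not overlap for 6 of the 10 genes (60%), 4 higher and 2 lower, ABCB1 included. The share of all genes was 38.6%.

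**Figure D3:**
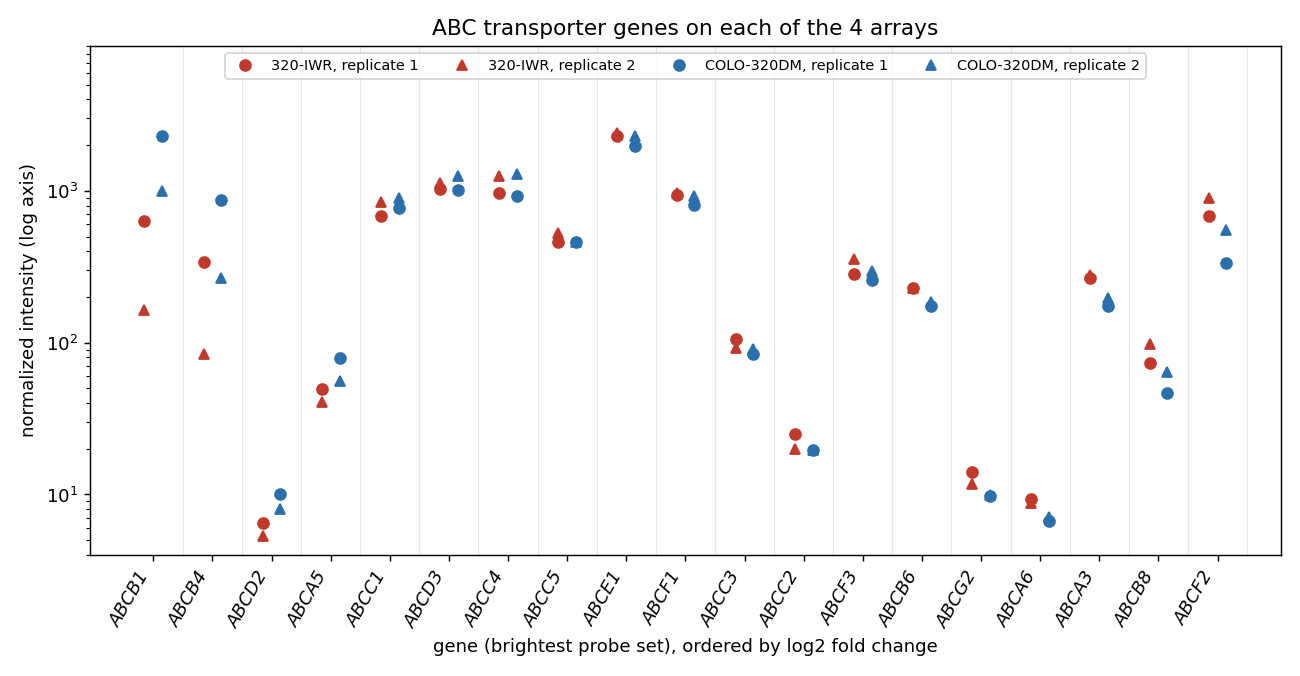
Normalized intensity on each array (vertical log axis) for the brightest probe set of 19 described genes (horizontal axis), ordered by log2 fold change, red for 320-IWR left of blue for COLO-320DM, circles for replicate 1 and triangles for replicate 2. ABCB1 and ABCB4 show the widest gap between the arrays of a line. ABCF2, ABCB8 and ABCA3, at the right end, have both red points above both blue points. So do ABCA6, ABCB6, ABCC2, ABCC3, ABCC5, ABCF1 and ABCG2, some by a narrow margin.

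Among the lipid carriers, ABCA3 was the member with the smallest p. ABCA3, which loads surfactant phospholipids into lamellar bodies in the lung, read 265 and 281 in 320-IWR, against 174 and 198 in COLO-320DM. The arrays of each line were close together and the lines did not overlap. The log2 difference was 0.56 (SE 0.13), 1.47-fold higher in 320-IWR, with a 95% interval from 0.22 to 0.90 and a limma adjusted p of 0.254. ABCA5, a carrier of late endosomes and lysosomes, read 49.3 and 40.6 in 320-IWR, against 79.6 and 55.7 in COLO-320DM (-0.57, SE 0.22, limma adjusted p = 0.518), and its second, dim probe set was at -0.28. Both 320-IWR arrays lay below those of COLO-320DM on each of these probe sets, and the difference was -0.32 on the brighter one without replicate 1 of COLO-320DM. ABCA6, which lies in the same cluster on chromosome 17 as ABCA5, was dim at 9.40 and 8.84 in 320-IWR and 6.64 and 7.07 in COLO-320DM (0.41, limma adjusted p = 0.358). ABCA1, which hands cholesterol to apolipoprotein A-I, was dim on all 4 of its probe sets, with its brightest at 16.9 and 16.8 in 320-IWR and 16.9 and 14.6 in COLO-320DM. The rest of the ABCA genes (ABCA2, ABCA4, ABCA7, ABCA8, ABCA9, ABCA12 and ABCA13) ran from -0.31 for ABCA12 to 0.14 for ABCA8. Over the 16 genes of lipid and sterol transport the median log2 difference was -0.06, with 7 higher and 9 lower, and 2 of them (ABCA3 and ABCA6, both higher) had an unadjusted p under 0.05, as did 12.3% of all genes by brightest probe set.

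The 4 measured ABCB genes of mitochondria and lysosomes all had positive log2 differences by brightest probe set, with a median of 0.22. Over their 8 probe sets, 7 of them higher and 1 lower, the median was 0.11. ABCB6, a single-cassette transporter linked to porphyrins, read 230 and 229 in 320-IWR, against 175 and 186 in COLO-320DM (0.34, SE 0.12, 95% interval 0.04 to 0.65, limma adjusted p = 0.443). Its second probe set, at 38.8 and 34.1 in 320-IWR and 32.2 and 28.4 in COLO-320DM, did not overlap between the lines either. ABCB8, a single-cassette transporter of the mitochondrial inner membrane, read 72.9 and 97.3 in 320-IWR, against 46.8 and 64.2 in COLO-320DM (0.62, SE 0.23, 95% interval 0.02 to 1.22, limma adjusted p = 0.493). The difference was 0.39 without replicate 1 of COLO-320DM and 0.41 without replicate 2 of 320-IWR. On the other ABCB8 probe set (206317_s_at) the lines overlapped, with 57.2 and 66.2 in 320-IWR and 50.7 and 62.8 in COLO-320DM. ABCB10, an inner membrane protein needed for haem synthesis, read 833 and 962 in 320-IWR and 753 and 974 in COLO-320DM (0.06), and ABCB9, a lysosomal peptide transporter, was at 0.09. The other ABCB9 probe sets were at 0.01 (1555323_at) and at -0.11 (214209_s_at), the latter with both 320-IWR arrays below those of COLO-320DM.

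The ABCD genes gave no common direction. ABCD3 (PMP70), the abundant peroxisomal membrane transporter, read 1027 and 1132 in 320-IWR and 1009 and 1250 in COLO-320DM on its brighter probe set (-0.06, 95% interval -0.47 to 0.35). Its second probe set (1554878_a_at) read 516 and 475 in 320-IWR, against 375 and 333 in COLO-320DM (0.49, SE 0.13, limma adjusted p = 0.322). The probe sets of ABCD3 therefore disagreed, overlapping between the lines on one and separating them on the other. ABCD2, which imports very long-chain fatty acids into peroxisomes, was dim at 6.48 and 5.32 in 320-IWR and 10.1 and 7.98 in COLO-320DM (-0.62, limma adjusted p = 0.366). ABCD4, which acts in lysosomal handling of cobalamin, was at 0.04.

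The members without a membrane domain had log2 differences above 0 on every probe set. ABCF2, whose role in human cells is less studied than that of the other members of this group, had 5 probe sets, and on each of them both 320-IWR arrays lay above both COLO-320DM arrays. The brightest (207622_s_at) read 681 and 893 in 320-IWR, against 333 and 551 in COLO-320DM, a log2 difference of 0.86 (SE 0.29) or 1.82-fold, with a 95% interval from 0.11 to 1.62 and a limma adjusted p of 0.433. It was 0.50 without replicate 1 of COLO-320DM and 1.23 without replicate 2 of that line. The probe set 209247_s_at read 638 and 930 in 320-IWR, against 289 and 526 in COLO-320DM (0.98), and 209246_at read 272 and 344 in 320-IWR, against 162 and 226 in COLO-320DM (0.67). The dimmer probe sets 214232_at (104 and 127 in 320-IWR, 69.5 and 79.7 in COLO-320DM) and 207623_at (31.9 and 44.2 in 320-IWR, 27.1 and 28.7 in COLO-320DM) were at 0.63 and 0.43. In every case replicate 2 was the higher array of its line, and limma adjusted p-values over the 5 ran from 0.287 to 0.606. These probe sets read transcripts of 1 gene and are not independent.

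ABCE1, which splits ribosomes after termination so that they can be used again, was at 2289 and 2417 in 320-IWR and 1988 and 2307 in COLO-320DM (0.14, 95% interval -0.22 to 0.49). Its second probe set did not overlap, at 2002 and 2157 in 320-IWR and 1774 and 1996 in COLO-320DM (0.14). ABCF1, which interacts with the initiation factor eIF2, read 936 and 962 in 320-IWR and 809 and 921 in COLO-320DM (0.14). ABCF3, the third human ABCF protein, read 282 and 356 in 320-IWR and 260 and 297 in COLO-320DM (0.19, 95% interval -0.25 to 0.63), with lines that overlapped. Counting ABCE and ABCF together, 9 of 9 probe sets were higher, 7 did not overlap and 4, all of ABCF2, had an unadjusted p under 0.05 by limma. Of all 54613 probe sets, 29477 were higher, 19.5% were higher without overlap and 4.6% were higher at that p. The 9 probe sets belong to 4 genes, and 5 of them to ABCF2.

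ABCB8 and ABCF2 lie near each other on chromosome 7, with 7 genes on the array between them. CDK5 (0.68), SLC4A2 (0.66), TMUB1 (0.66) and AGAP3 (0.47) all had 320-IWR arrays that did not overlap with those of COLO-320DM and an unadjusted p under 0.05, which is 4 of the 7. Of all 19775 genes by brightest probe set, 1169 were higher at that p by limma. Both 320-IWR arrays lay above those of COLO-320DM for 4162 of them. FASTK was at 0.35 on its brightest probe set, with overlapping arrays. On its other probe sets, 202676_x_at (0.30) and 210975_x_at (0.35), the lines did not overlap. GBX1 and ASB10 were at 0.01 and 0.04. Limma adjusted p-values of the 7 were 0.185 at the lowest (CDK5). This stretch was looked at after the values of ABCB8 and ABCF2 had been seen.

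The remaining members were dim or flat. ABCC8 and ABCC9, the sulfonylurea receptors that regulate potassium channels, were at -0.11 and 0.02 by brightest probe set, and their 7 probe sets had 0 at an unadjusted p under 0.05 by limma. ABCB11, the bile salt export pump, was at 0.11 and ABCB5 at -0.04. The sterol carriers ABCG1, ABCG4, ABCG5 and ABCG8 ran from -0.03 to 0.08, and none of the 8 ABCG probe sets reached a mean log2 value of 6 in either line. ABCC13, a human pseudogene whose symbol meets the rule, was dim on 4 probe sets, with 0.15 on the brightest.

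By subfamily, medians over genes stayed within 0.2 log2 units of 0. They were -0.13 for the 11 ABCA genes, 0.08 for the 8 ABCB genes, 0.01 for the 11 ABCC genes, -0.06 for the 3 ABCD genes, 0.14 for ABCE1, 0.19 for the 3 ABCF genes and 0.08 for the 5 ABCG genes, beside 0.03 for all 42 members and 0.02 for all genes on the array. The spread within a subfamily was widest in ABCB, from -2.24 for ABCB1 to 0.62 for ABCB8, and narrow in ABCC, from -0.14 to 0.18. ABCF was the subfamily with the largest share of separated probe sets, 6 of 7, all higher, of which 5 were ABCF2. In ABCA 10 of 24 probe sets did not overlap (4 higher and 6 lower), in ABCB 7 of 18, in ABCC 12 of 32, in ABCD 2 of 5, in ABCE 1 of 2 and in ABCG 3 of 8, between 37.5% and 50% each, where all probe sets gave 35.6%. With ABCB1, ABCB4, ABCB8 and ABCF2 set aside, a choice made after seeing the values, 33 of the 85 other probe sets did not overlap (38.8%) and 6 had an unadjusted p under 0.05 by limma (5 higher and 1 lower). Of all probe sets 9.71% were under that p (4.6% higher and 5.11% lower).

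Over all members, many of them dim, the spread between the 2 arrays of a line was close to that of all probe sets. Among the brighter members it was wider than among all probe sets of that brightness. The median absolute difference between replicates 1 and 2 was 0.19 log2 units in 320-IWR and 0.18 in COLO-320DM over the 96 ABC probe sets, and 0.18 in 320-IWR and 0.17 in COLO-320DM over all probe sets. In both lines at once it exceeded 0.5 for 7 members (7.29%), against 5.34% of all probe sets. These were the 2 probe sets of ABCB1, 207819_s_at of ABCB4, 2 of ABCC4, 1 of ABCC5 and 1 of ABCF2. For ABCB1 (209993_at) replicate 1 exceeded replicate 2 by 1.95 log2 units in 320-IWR and by 1.22 in COLO-320DM, and for 207819_s_at of ABCB4 by 2.01 in 320-IWR and by 1.70 in COLO-320DM. A gap of the size seen for ABCB1 was at the 99.9th percentile of all probe sets in 320-IWR and at the 99.3rd in COLO-320DM. ABCC4 ran the other way, with 125 and 223 on replicates 1 and 2 of 320-IWR and 113 and 229 on those of COLO-320DM for 1555039_a_at. ABCC5 gave 462 and 290 in 320-IWR and 499 and 267 in COLO-320DM for 226363_at, although its brightest probe set differed by at most 0.18 between the arrays of a line. The sign of the difference between replicates was the same in both lines for 68 of the 96 members (70.8%), as it was for 70.1% of all probe sets. The COL3A1 signal named above went with the replicate number in the opposite direction to ABCB1, and its part in the ABCB1 values was not tested.

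**Figure D4:**
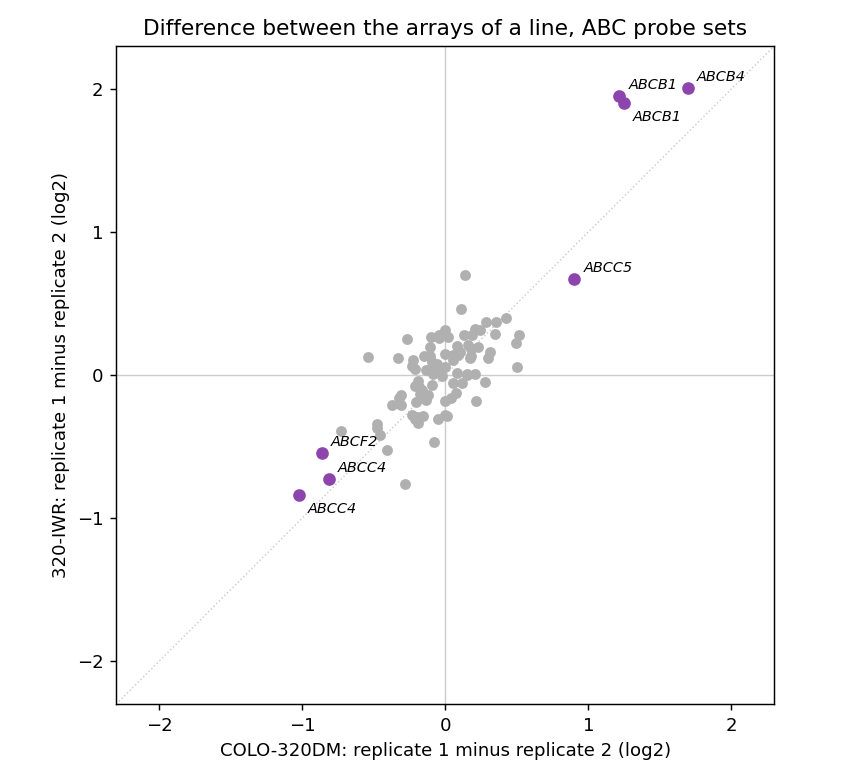
Log2 difference of replicate 1 minus replicate 2 in 320-IWR (vertical axis) against the same difference in COLO-320DM (horizontal axis) for the 96 ABC probe sets, with those over 0.5 in both lines in purple. Both probe sets of ABCB1 and the brighter one of ABCB4 lie far to the upper right, with replicate 1 higher by 1.22 to 2.01 in each line, and 2 probe sets of ABCC4 and 1 of ABCF2 lie to the lower left.

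The precision of 2 arrays a line set what could be seen. The 95% interval of a gene's log2 difference had a median distance of 0.38 from the estimate to its bound (0.30 to 2.23) over the 42 brightest probe sets. For 36 of the 42 the interval lay within 2-fold in both directions, among them the brightest probe sets of ABCC1, ABCC3, ABCC4 and ABCC5. Other probe sets of these genes had intervals that reached 2-fold: -1.10 to 1.20 for 1555039_a_at of ABCC4 and -0.45 to 1.04 for 1558460_at of ABCC5. Of the 36, 20 were dim, ABCC2 and ABCG2 included, and since RMA compresses dim signals their intervals bound the difference in intensity, not that in transcript. Among the 42 brightest probe sets the interval reached 2-fold higher for ABCB8 and ABCF2, and 2-fold lower for ABCA5, ABCB1, ABCB4 and ABCD2.

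Genes known to regulate ABC genes or to work with their products were read alongside, by brightest probe set. Of 47 listed, 40 had a probe set of their own, with a median log2 difference of 0.05, 0 called in either direction by limma and 4 at an unadjusted p under 0.05, all higher (0 lower), a share near the 12.3% of all genes at that p by brightest probe set. NR1H3 and NFE2L2, the members of the list with the smallest p, are given as values, and KEAP1 is given beside NFE2L2. NR1H3 (LXRα), the sterol sensor that activates ABCA1 and ABCG1, read 232 and 286 in 320-IWR, against 109 and 120 in COLO-320DM, a log2 difference of 1.17 (SE 0.16, limma adjusted p = 0.0962). NFE2L2 (NRF2), an activator of antioxidant genes and of several ABC genes, read 1452 and 1475 in 320-IWR, against 856 and 952 in COLO-320DM (0.70, SE 0.12, limma adjusted p = 0.163). For both genes the lines stood well apart on these probe sets relative to the spread of their arrays. The other NFE2L2 probe sets were at 0.53 (1567013_at) and, dim and with lines that overlapped, at 0.12 (1567015_at). KEAP1, which holds NRF2 back, read 1107 and 1637 in 320-IWR, against 681 and 1037 in COLO-320DM (0.68, SE 0.29, limma adjusted p = 0.581), with lines that did not overlap. Of the ABC genes they are known to act on, ABCA1 and ABCG1 were at 0.10 and -0.03, and ABCC1, ABCC2, ABCC3, ABCC4 and ABCG2 were at -0.14, 0.18, 0.17, 0.01 and 0.38. Besides NR1H3 and NFE2L2, the genes at an unadjusted p under 0.05 were EIF2S1, a subunit of eIF2 (0.44), and PEX16, a peroxisome assembly factor (0.42).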

How the data were processed

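Total RNA of 320-IWR and COLO-320DM cells, extracted with the RNeasy kit, had been labelled and hybridised to GeneChip Human Genome U133 Plus 2.0 arrays, 2 per line. The authors normalized the data with GeneSpring GX, the submitters' processing notes name RMA with no version, and the deposited values are normalized probe set intensities on a linear scale with no detection calls or scan dates. RMA shares information between arrays and compresses dim signals, so folds of dim probe sets can be understated. The file holds 54675 probe sets, of which 62 controls were dropped and 54613 tested (41091 with 1 symbol, 1801 with several, 11721 with none in the platform annotation). The deposited intensities were set to at least 1, converted to log2 and fitted with limma 3.58.1 (R 4.3.3; lmFit and eBayes, constant prior with 2.78 degrees of freedom), cell line as the only term, and p-values were adjusted by the Benjamini-Hochberg method over all probe sets. A call needed an adjusted p under 0.05 and a 2-fold difference. The study's methods name no test across arrays. An exact permutation test of 2 arrays against 2 cannot go below p = 0.333 (two-sided), so none was run. Each gene was read from its brightest probe set by mean log2 value; a probe set was called dim where no line reached a mean log2 value of 6.

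Described genes were the 10 with the largest absolute log2 fold change, the exporters ABCB1, ABCC1 to ABCC5 and ABCG2, ABCE1, ABCF1 to ABCF3 and the 3 brightest, which gave 19 probe sets. Members, roles, partner and marker lists were chosen with earlier results of these data known. Some genes of the role lists were not analysed here. Promoters (250 bases before the start) came from RefSeq, GRCh38.p14, and gene order from the gene table of the same build. The script was tested on simulated data. Alternatives were a block on replicate number, dropping each array in turn, cyclic loess, equal medians, a filter on dim probe sets, a trended robust prior, 16 added before log2, no fold limit and other ways to represent genes.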

Additional observations from a re-analysis of the deposited data

How the results depend on the processing

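No ABC probe set was called under any alternative except the block on replicate number. With the replicate number as a block, 2 ABC probe sets were called lower, 207819_s_at of ABCB4 (-1.51, adjusted p = 0.0425) and 243951_at of ABCB1 (adjusted p = 0.0489), while 209993_at of ABCB1 was at 0.0514; over all probe sets 182 were called higher and 394 lower, against 61 and 141 without the block. The numbers pair nothing that the labels name: deviations of same-numbered arrays correlated with r = 0.661 over all probe sets and 0.844 over ABC probe sets, but with only 2 numbers this is a hint from the data. At an unadjusted p under 0.05 the block gave 19 ABC probe sets (19.8%, beside 20.5% of all) in place of 13. With 16 added before log2, which shrinks dim differences, 5 ABC probe sets were under 0.05, and 34 probe sets in all were called higher and 77 lower. Leaving out each array in turn, a line with 1 array being assumed to vary like the other, gave 1 to 12 ABC probe sets under 0.05, 0 to 19 probe sets in all called higher and 0 to 44 lower. The count was 1 without COLO-320DM replicate 1 and 2 without 320-IWR replicate 2. The median over ABC genes was 0.03, ran from -0.02 to 0.08 with an array left out, and from 0.01 to 0.05 over the other alternatives. Among the 19 described probe sets the sign turned for 3, all near 0: leaving out an array, ABCC1 ran from -0.29 to 0.018 (above 0 without 320-IWR replicate 1), ABCD3 from -0.21 to 0.096 (0.011 without 320-IWR replicate 1 and 0.096 without COLO-320DM replicate 2) and ABCC4 from -0.23 to 0.25 (-0.17 without 320-IWR replicate 2 and -0.23 without COLO-320DM replicate 1), and ABCC4 was -0.019 with cyclic loess. The cause of these shifts was not tested. The 2 arrays a line and the low signal of most of the 96 probe sets limit what can be resolved.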

Other observations

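Loci of the family that the naming rule leaves out were read by the same fit, and 0 of them were called. ABCA17P, a pseudogene beside ABCA3 on chromosome 16, read 102 and 163 in 320-IWR and 59.2 and 111 in COLO-320DM (231164_at, log2 difference 0.66, SE 0.38, limma adjusted p = 0.74), with lines that overlapped and replicate 2 the higher array of each. ABCA11P read 75.7 and 77.9 in 320-IWR, against 92.4 and 94.4 in COLO-320DM (-0.28, SE 0.12, limma adjusted p = 0.553). TAP1, which brings peptides to MHC class I, read 80.7 and 88.9 in 320-IWR and 103 and 94.6 in COLO-320DM (-0.22), its partner TAP2 was at 0.13 on its brightest probe set, and the chloride channel gene CFTR was dim on all 6 probe sets, with -0.01 on the brightest.

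Over the whole array, 92 probe sets were at least 2-fold higher and 182 at least 2-fold lower in replicate 1 than in replicate 2 of both lines, 0.502% in all. The first set held 3 ABC probe sets, those of ABCB1 and 207819_s_at of ABCB4, and the second held 0.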
